A study of Mus musculus with 4 samples.

Results

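The cyclins and cyclin-dependent kinases of the testis were followed here in whole testes of Azin2 KO and WT mice. The group has 10 genes, chosen by symbol: the A-type cyclins Ccna1 and Ccna2, the B-type cyclins Ccnb1, Ccnb2 and Ccnb3, the D-type cyclin Ccnd2, the E-type cyclins Ccne1 and Ccne2, and the kinases Cdk1 and Cdk2. Of these 10 genes, 8 had a probe set of their own on the array, among 18820 genes with one in all. The only probe set paired with Ccne2 is shared with Ints8, a subunit gene of the Integrator complex that overlaps Ccne2 in GRCm38.p6. No probe set is paired with Ccnb1 in the annotation used here, and Ccnb1 was not analysed.

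The series holds 4 arrays (Affymetrix Mouse Gene 1.1 ST) of testis RNA from adult males, 2 of Azin2 KO and 2 of Azin2 WT, and on each array RNA of 3 mice was pooled. In KO animals, kept on a mixed C57BL/6 background, Azin2, which encodes an antizyme inhibitor, is interrupted between exons by a cassette with the β-Geo reporter, which WT animals lack. All p-values rest on the spread between these pools, whose small number limits the precision. The standard errors, intervals and p-values from limma are not set by the spread of 1 gene alone. They also draw on the spread of all probe sets in the fit. Each value is a log2 signal per probe set after RMA, a method that removes background, equalizes the distributions of the arrays and reduces the probes of each set to a single value. Signals of different probe sets are not on one scale of mRNA abundance, so each gene was compared only with itself between arrays. In whole testis, fewer cells of a type and less RNA per cell cannot be told apart. Azin2 itself had signals of 7.36 and 7.14 in the KO pools, against 10.16 and 9.998 in the WT pools (KO minus WT -2.83, standard error 0.10, adjusted p = 0.025 from limma). The array medians ranged from 6.08 to 6.11. Taken pair by pair, the arrays differed with an SD over named probe sets of 0.132 to 0.157, the highest value being that between the 2 KO pools. The defining genes Sycp3 and Stag3 of spermatocytes and Prm1 and Tnp1 of spermatids were measured at signals between 11.20 and 12.40 in all 4 arrays.

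A cyclin-dependent kinase is typically activated by a cyclin bound to it, and the cyclin present helps to set when in the cell cycle the kinase works. D-type and E-type cyclins act before and at the start of DNA replication, A-type cyclins during replication and later, and B-type cyclins at division. In the testis the spermatogonia divide by mitosis, while spermatocytes replicate their DNA once, stay long in meiotic prophase and then divide in succession without replication between. Part of the machinery is replaced at this switch: Ccna1 is made almost exclusively in male germ cells and is needed in male mice to leave meiotic prophase, while Ccna2 serves dividing cells of all tissues.

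The promoter windows of 4 members are printed to show which motifs of cell cycle genes they hold. Each runs from 250 bases before to 50 bases after the start of the gene, 5′ to 3′ on the strand of the gene, from RefSeq (GRCm38.p6). Capitals mark CCAAT boxes (CCAAT, or ATTGG on the other strand), bound by NF-Y, and the cell cycle homology region (TTTGAA, or TTCAAA on the other strand), an element known from genes that are active at division. No match of one overlapped a match of the other. Shown are Ccna1 (chr3:55055006-55055305, minus strand), Cdk1 (chr10:69352863-69353162, minus strand), Ccnb2 (chr9:70421505-70421804, minus strand) and Ccnb3 (chrX:7041570-7041869, minus strand), the meiotic A-type cyclin, the division kinase, its B-type partner and the member with the smallest p-value.
Ccna1: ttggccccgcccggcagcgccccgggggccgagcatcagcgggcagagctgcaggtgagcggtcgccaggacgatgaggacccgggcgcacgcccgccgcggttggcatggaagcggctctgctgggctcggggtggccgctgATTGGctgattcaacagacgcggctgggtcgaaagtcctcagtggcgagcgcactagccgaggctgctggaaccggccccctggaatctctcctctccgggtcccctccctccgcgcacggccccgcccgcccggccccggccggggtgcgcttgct
Cdk1: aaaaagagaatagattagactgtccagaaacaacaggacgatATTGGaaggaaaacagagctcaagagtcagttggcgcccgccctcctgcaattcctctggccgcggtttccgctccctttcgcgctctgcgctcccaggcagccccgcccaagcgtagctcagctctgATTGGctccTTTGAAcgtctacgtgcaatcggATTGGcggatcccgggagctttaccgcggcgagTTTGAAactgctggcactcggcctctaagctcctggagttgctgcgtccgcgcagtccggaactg
Ccnb2: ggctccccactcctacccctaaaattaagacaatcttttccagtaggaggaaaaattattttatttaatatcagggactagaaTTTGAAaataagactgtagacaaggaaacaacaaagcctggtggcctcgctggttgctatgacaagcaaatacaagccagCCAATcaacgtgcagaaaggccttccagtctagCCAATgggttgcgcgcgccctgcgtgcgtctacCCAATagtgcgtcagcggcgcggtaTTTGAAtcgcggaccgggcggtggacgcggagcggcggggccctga
Ccnb3: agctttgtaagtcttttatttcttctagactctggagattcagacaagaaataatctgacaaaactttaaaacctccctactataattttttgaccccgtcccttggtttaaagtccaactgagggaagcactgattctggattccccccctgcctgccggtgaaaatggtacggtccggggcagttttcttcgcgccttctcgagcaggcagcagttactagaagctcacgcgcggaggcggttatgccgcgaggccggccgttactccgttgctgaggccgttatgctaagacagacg

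The Cdk1 window held 3 CCAAT boxes and 2 homology regions, and the Ccnb2 window likewise 3 and 2. With positions counted from 0 at the start of the gene, the homology regions began at -71 and -15 in Cdk1 and at -167 and 4 in Ccnb2. The Ccna1 window held 1 CCAAT box, at -107, and no match to the homology region, with 74% G and C. The Ccnb3 window held neither motif in the spellings searched, with 50.3% G and C. The Ccnb1 window, also of a division cyclin, held 2 CCAAT boxes and, like that of Ccna1, no TTTGAA or TTCAAA. Other spellings of the homology region were not searched, so these windows are not shown to lack the element. Promoters of 7 members were in the table, those of Ccne1 and Cdk2 included, and 5 of the 7 (71.4%) held a CCAAT box, against 37.4% of all 32851 promoters of this length. The homology region was found in 2 of the 7 (28.6%), against 17.9% of all promoters, and both motifs together in 2 of the 7, against 6.95%. Ccna2, Ccnd2 and Ccne2 were not analysed in this way. These matches describe the letters of the windows and do not show that a factor binds there.

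Ccna1, the cyclin of meiotic prophase (probe set 10498192), had log2 signals of 11.05 and 10.94 in the KO pools, against 10.93 and 10.95 in the WT pools. KO replicate 1 was the highest of the 4 arrays, and KO replicate 2 lay between the WT pools. The KO mean of 10.998 ± 0.076 and the WT mean of 10.938 ± 0.018 (SD, n = 2 pools each) differed by 0.06 on the log2 scale (standard error 0.06, 95% interval -0.09 to 0.21, adjusted p = 1 from limma). As a fold of KO over WT this is 1.04, with an interval of 0.939 to 1.16. With KO replicate 1 left out the log2 difference was 0.0062, and with KO replicate 2 left out it was 0.11.

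Ccna2, the A-type cyclin of DNA replication and mitosis (probe set 10497831), had log2 signals of 8.52 and 8.45 in the KO pools, against 8.50 and 8.38 in the WT pools. WT replicate 2 was the lowest array and the other 3 lay within 0.08 of each other, so the genotypes overlapped. KO minus WT was 0.05 (standard error 0.07, 95% interval -0.12 to 0.22, adjusted p = 1 from limma), and it was -0.01 without WT replicate 2.

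To compare the meiotic with the mitotic cyclin A, the log2 signal of Ccna2 was subtracted from that of Ccna1 within each array. The result has no meaning as a ratio of mRNAs, since the probes differ, but it can be compared between arrays. It was 2.53 and 2.49 in the KO pools, against 2.43 and 2.57 in the WT pools. The WT pools spanned the KO pools, and the KO mean exceeded the WT mean by 0.01 (SD 0.02 in KO and 0.10 in WT, n = 2 pools each, exact permutation test, two-sided, p = 1, where 2 pools against 2 allow no p under 0.333). Without each array in turn this difference ranged from -0.06 (without WT replicate 1) to 0.08 (without WT replicate 2), so that its direction was decided by single pools. A shift of one A-type cyclin relative to the other was therefore not detectable with these arrays.

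**Figure D1:**
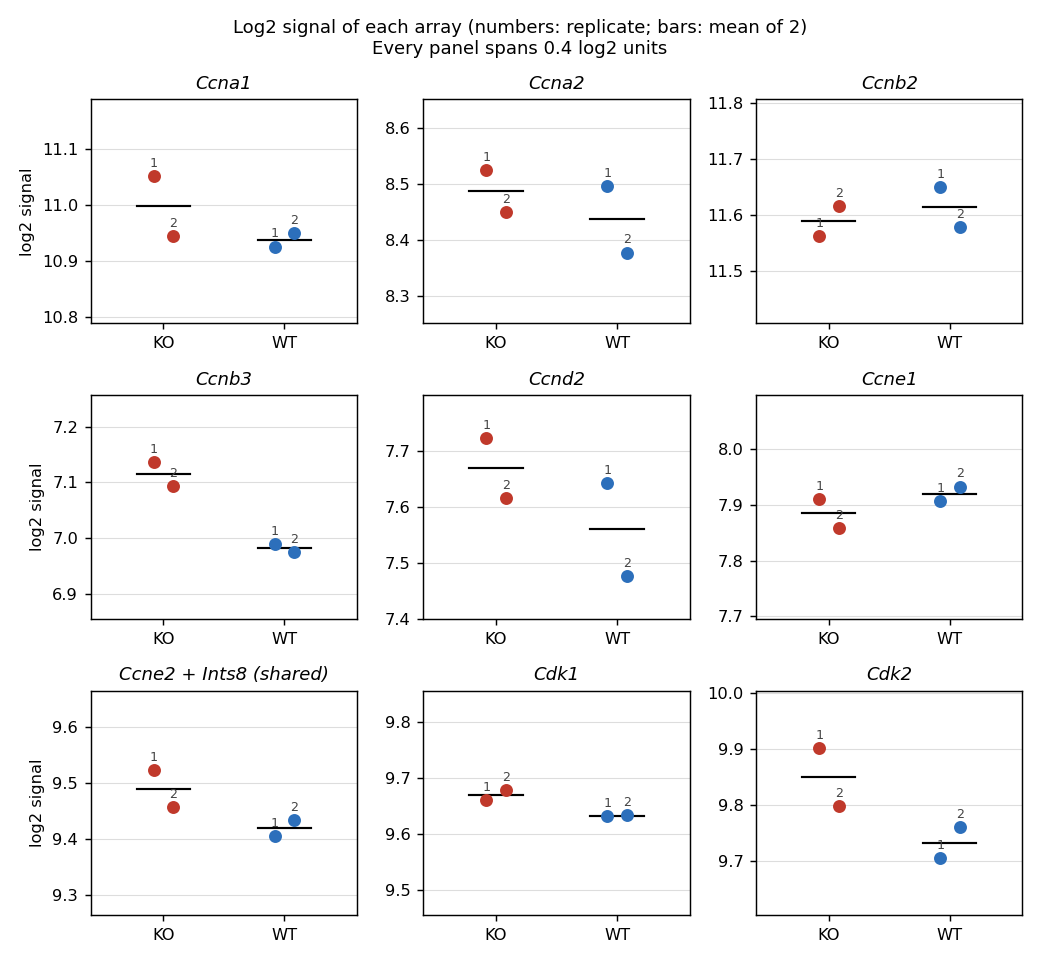
Log2 signal (vertical axis, 0.4 log2 units in every panel) of each array for the 8 members with a probe set of their own and for the probe set shared by Ccne2 and Ints8, KO being red and WT blue, with replicate numbers above the points and bars at the mean of 2 arrays. The genotypes do not overlap for Ccnb3, Cdk1, Cdk2 and the shared probe set, and overlap in the other 5 panels.

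Among the B-type cyclins, Ccnb2 (probe set 10594774), a partner of Cdk1 that mice can do without, had log2 signals of 11.56 and 11.62 in the KO pools, against 11.65 and 11.58 in the WT pools. The pools of the genotypes interleaved. KO minus WT was -0.02 (standard error 0.06, 95% interval -0.17 to 0.12, adjusted p = 1 from limma), and it was above 0 without KO replicate 1 (0.0025) and without WT replicate 1 (0.01).

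Ccnb3 (probe set 10603275), an X-linked B-type cyclin found in early meiotic prophase, showed the largest difference among the 8 members. Its log2 signals were 7.14 and 7.09 in the KO pools, against 6.99 and 6.98 in the WT pools. As for Cdk1 and Cdk2 (3 of the 8 members in all), both KO pools lay above both WT pools. Over all named probe sets 20.1% did so, and 32.5% had no overlap in either direction. KO minus WT exceeded the spread within either genotype, again as for Cdk1 and Cdk2, but the share of all named probe sets that do so was not computed. KO minus WT was 0.13 (standard error 0.05, 95% interval 0.0043 to 0.26, unadjusted p = 0.0451 and adjusted p = 1 from limma), a fold of 1.095. The unadjusted p was 0.0554 when unnamed probe sets were tested as well, 0.121 with a prior that follows the signal, and between 0.0839 and 0.18 without each array in turn. The probe set was a dim one, with a KO mean of 7.11 ± 0.03 and a WT mean of 6.98 ± 0.01 (SD, n = 2 pools each).

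Cdk1 (probe set 10369815), the kinase that drives mitotic and meiotic division, had log2 signals of 9.66 and 9.68 in the KO pools, against 9.63 and 9.63 in the WT pools. These were the tightest values of the group, and the genotypes did not overlap although they differed by only 0.04 (standard error 0.05, 95% interval -0.09 to 0.16, adjusted p = 1 from limma). Cdk2 (probe set 10373530), which somatic cells can do without but meiosis in mice requires, had log2 signals of 9.90 and 9.80 in the KO pools, against 9.71 and 9.76 in the WT pools. Here too both KO pools lay above both WT pools. The difference of 0.12 (standard error 0.06, 95% interval -0.04 to 0.27, unadjusted p = 0.11 and adjusted p = 1 from limma) is a fold of 1.08.

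Ccnd2 (probe set 10548105), the D-type cyclin of dividing spermatogonia whose loss leaves mice with small testes, had log2 signals of 7.72 and 7.62 in the KO pools, against 7.64 and 7.48 in the WT pools. Its WT pools lay 0.17 apart, the widest WT spread of the 8 members, and the genotypes overlapped. KO minus WT was 0.11 (standard error 0.08, 95% interval -0.09 to 0.31, adjusted p = 1 from limma), a value of 0.03 without WT replicate 2 and of 0.19 without WT replicate 1. WT replicate 2 was the lowest array for Ccna2, Ccnb3 and Ccnd2, 3 of the 8 members, against 30.2% of all named probe sets. In that array the mean of 14 spermatogonia markers lay 0.10 below its average over the 4 arrays. The mean of 11 Sertoli cell markers lay 0.10 below as well, and the part of these cell types in the member values was not tested.

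Ccne1 (probe set 10562563), which activates Cdk2 at the start of replication, had log2 signals of 7.91 and 7.86 in the KO pools, against 7.91 and 7.93 in the WT pools. KO replicate 1 lay between the WT pools, and KO minus WT was -0.04 (standard error 0.05, 95% interval -0.17 to 0.10, adjusted p = 1 from limma). Leaving out KO replicate 1 gave -0.06, and leaving out KO replicate 2 gave -0.0090. The probe set shared by Ccne2 and Ints8 (10503264) gave 9.52 and 9.46 in the KO pools, against 9.41 and 9.43 in the WT pools. It differed by 0.07 (standard error 0.05, adjusted p = 1 from limma), but cannot be assigned to either gene and was left out of the counts.

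Of the 8 members, 0 passed an adjusted p of 0.05 in limma, where 1 of 23099 named probe sets (0.00433%), that of Azin2, passed. At an unadjusted p under 0.05 there was 1 member, Ccnb3, of 8 (12.5%), against 4.10% of all named probe sets, and the ordinary equal-variance test also gave 1, again Ccnb3. The KO and WT arrays did not overlap for 3 of 8 (37.5%), against 32.5% of all named probe sets, so this share was near the background. All 3, Ccnb3, Cdk1 and Cdk2, were higher in KO. Members without overlap and higher in KO were thus also 3 of 8 (37.5%), against 20.1% of all named probe sets. Of the 7501 named probe sets without overlap, 4653 were higher in KO. The differences of the 8 members had a median of 0.05, with 6 above 0, while those of all named probe sets had a median of 0.01, with 56.9% above 0. The 95% intervals of the 8 members lay between -0.17 and 0.31, that is between folds of array signal of 0.891 and 1.24. None of them reached a fold of 1.5 in either direction. How far folds of array signal follow folds of mRNA was not tested.

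**Figure D2:**
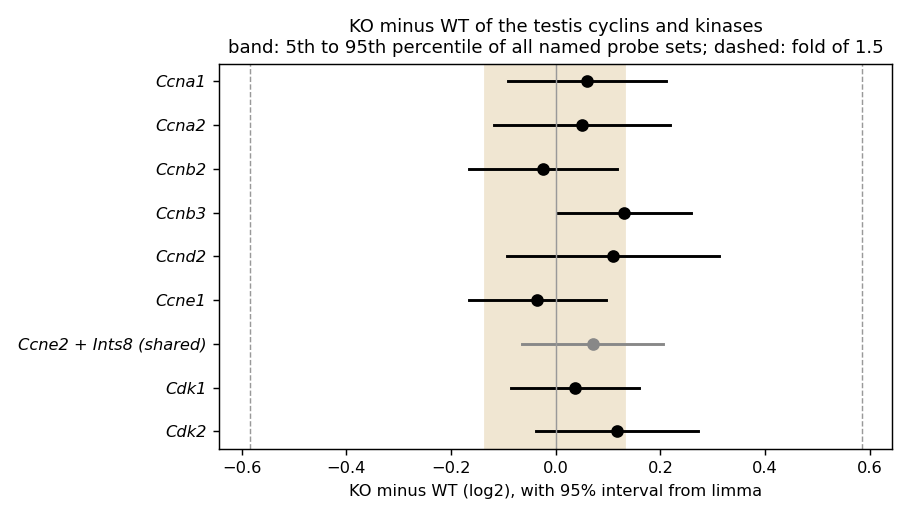
KO minus WT in log2 units (horizontal axis) of the 8 members and, in grey, of the probe set shared by Ccne2 and Ints8, with 95% intervals from limma; the band spans the 5th to 95th percentile of all named probe sets (-0.14 to 0.13) and dashed lines mark a fold of 1.5. Points lie between -0.04 (Ccne1) and 0.13 (Ccnb3), and no interval reaches a dashed line.

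The other genes of the cell cycle machinery were followed in 7 lists of 108 genes, of which 103 had a value of their own. None of the 103 passed an adjusted p of 0.05 in limma, and 3 had an unadjusted p under 0.05 (2.91%), all higher in KO. Their median difference was 0.02, and 64 were above 0. The arrays of the genotypes did not overlap for 28 of them (27.2%), 18 being higher in KO (17.5%). Both shares were below those of all named probe sets.

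Of 18 other cyclins, 12 were above 0 and the median was 0.01. Ccnd1, another D-type cyclin of early cell cycle entry, had log2 signals of 8.24 and 8.26 in the KO pools, against 8.10 and 8.04 in the WT pools, a difference of 0.18 (standard error 0.05, unadjusted p = 0.017, adjusted p = 1 from limma). Its genotypes did not overlap. The lowest values were those of Ccnl1 and Ccnl2, cyclins linked to mRNA splicing, at -0.12 each, also without overlap. Of the 18, 6 had genotypes that did not overlap, 2 higher and 4 lower in KO, where the share over all named probe sets was 32.5%.

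Of 16 other cyclin-dependent kinases with a value, 11 were above 0 and the median was 0.02. Cdk7, the kinase that activates Cdk1 and Cdk2 by phosphorylation, had log2 signals of 7.85 and 7.89 in the KO pools, against 7.76 and 7.68 in the WT pools, a difference of 0.15 (unadjusted p = 0.041 and adjusted p = 1 from limma). Cdk4, the partner of the D-type cyclins, stood at 0.10 (unadjusted p = 0.124 from limma). The largest difference, 0.26 for Cdk14, came with KO pools of 8.36 and 7.46 and WT pools of 7.57 and 7.73, and 1 KO pool set it. Cdk15 was the lowest at -0.13.

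Of 8 CDK inhibitors, 6 were above 0 and the median was 0.03. Cdkn1b, which encodes p27 and holds back Cdk2, had log2 signals of 8.27 and 8.18 in the KO pools, against 8.10 and 8.08 in the WT pools, a difference of 0.14 (unadjusted p = 0.058 from limma). Its relative Cdkn1c stood at 0.11 (unadjusted p = 0.093 from limma), and Cdkn3, a phosphatase that acts on Cdk2, at -0.04. Cdkn1b and Cdkn1c were higher in both KO pools than in both WT pools, and neither passed the adjusted test. They were the only 2 of the 8 without overlap, where the share over all named probe sets was 32.5%, with 20.1% higher in KO.

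Among 13 partners and regulators of the kinases, 6 were above 0 with a median of -0.0002. Cks1b and Cks2, small proteins that bind Cdk1 and Cdk2, stood at 0.19 and 0.07 (unadjusted p = 0.078 and 0.192 from limma), with no overlap of the genotypes. Of the 13, 3 had no overlap, 2 higher and 1 lower in KO, where the share over all named probe sets was 32.5%. Inca1, named for its binding to the Ccna1 complex with Cdk2, was the lowest at -0.13, with KO pools of 8.13 and 7.87 and WT pools of 8.18 and 8.08. Hspa2, the germ cell chaperone that Cdk1 needs to bind cyclin B in male meiosis, had values of 11.56 and 11.55 in the KO pools, against 11.59 and 11.56 in the WT pools (KO minus WT -0.01). Hspa2 is named outside the rule for named genes, after its values were seen.

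Of 18 genes of the anaphase-promoting complex and its targets, which end division by destroying cyclin B, 11 were above 0, from -0.08 for Anapc4 to 0.10 for Anapc7 (unadjusted p = 0.090 from limma), and Anapc11 stood at 0.08. Of 11 kinases of division, 6 were above 0, and all 11 lay in the narrowest range of the 7 lists, between -0.11 for Mastl, which shields Cdk1 substrates from dephosphorylation, and 0.04 for the centrosome kinase Nek2. Haspin, a histone kinase abundant in haploid germ cells, stood at -0.04.

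Of 19 genes of DNA replication and proliferation, 12 were above 0 and the median was 0.03. Mcm5, a subunit of the replicative helicase, had log2 signals of 8.75 and 8.66 in the KO pools, against 8.53 and 8.49 in the WT pools, a difference of 0.19 (standard error 0.06, unadjusted p = 0.019, adjusted p = 1 from limma). Mybl2, a transcription factor of a complex that binds the cell cycle homology region, was the lowest at -0.20, with KO pools of 7.66 and 7.82 and WT pools of 7.88 and 7.999 (unadjusted p = 0.059 from limma). In both genes the genotypes did not overlap, in opposite directions. Of the 19, 6 had no overlap, 4 higher and 2 lower in KO, where the share over all named probe sets was 32.5%.

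**Figure D3:**
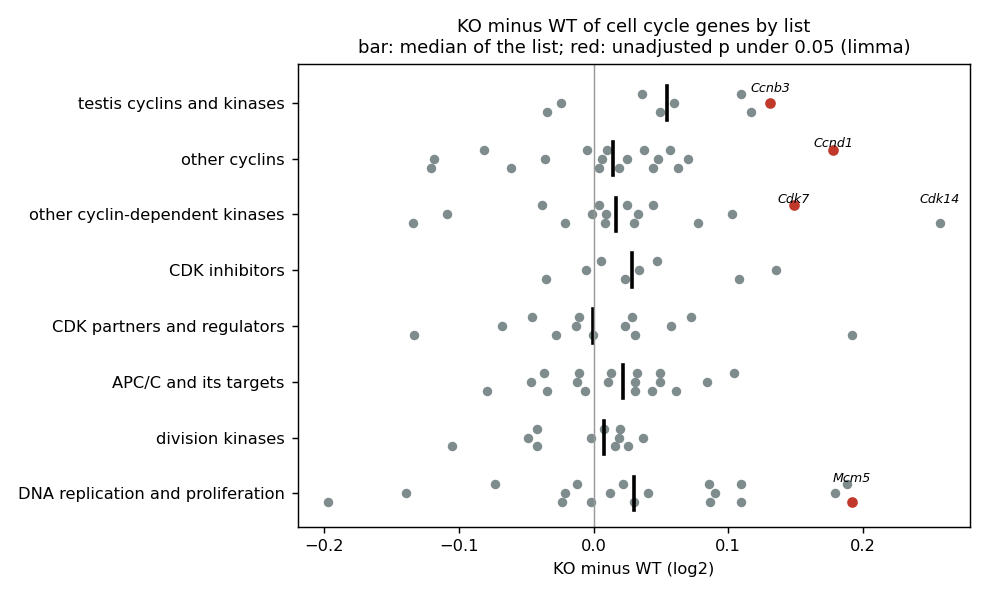
KO minus WT in log2 units (horizontal axis) of the testis cyclins and kinases and of 7 lists of other cell cycle genes; each point is 1 gene, the black bar is the median of its list, and genes at an unadjusted p under 0.05 are red and named, beside Cdk14. All 4 red points (Ccnb3, Ccnd1, Cdk7 and Mcm5) lie between 0.13 and 0.19, and none passed the adjusted test.

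Markers of the cell types that carry these genes were set beside them. The 20 spermatocyte markers had a mean deviation from their average over the 4 arrays of 0.03 and 0.0007 in the KO pools, against -0.01 and -0.01 in the WT pools. Of the 20, 14 were above 0, and Tex101 and Ovol1 stood at 0.17 and 0.15 (unadjusted p = 0.033 and 0.046 from limma) and Prdm9 was the lowest at -0.08. The 14 spermatogonia markers deviated by 0.03 and 0.02 in the KO pools, against 0.04 and -0.10 in the WT pools, so that the low array was WT replicate 2 alone. Of the 14, 11 were above 0, with Lin28a the highest at 0.23 (unadjusted p = 0.00703 from limma), and Kit the lowest at -0.16, and Dmrt1 stood at 0.13 (unadjusted p = 0.0906 from limma). The Lin28a probe set was dim, with signals of 6.49 to 6.77. The 14 spermatid markers with a value deviated by 0.0006 and -0.01 in the KO pools, against -0.02 and 0.03 in the WT pools, with 5 above 0, from -0.05 for Prm1 and -0.04 for Smcp to 0.04 for Hils1. None of these markers passed an adjusted p of 0.05.

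Among somatic cells, 11 Sertoli cell markers deviated by -0.01 and 0.09 in the KO pools, against 0.02 and -0.10 in the WT pools. Of the 11, 10 were above 0, with Amh at 0.21, Inhbb at 0.12 (unadjusted p = 0.0533 from limma) and Trf the lowest at -0.03. Amh was dim, at 5.62 and 5.95 in the KO pools, against 5.61 and 5.54 in the WT pools, and KO replicate 2 set its difference. The 7 Leydig cell markers with a value deviated by -0.18 and 0.11 in the KO pools, against 0.09 and -0.02 in the WT pools, and the 6 macrophage markers by -0.23 and 0.07 in the KO pools, against -0.06 and 0.23 in the WT pools, with 0 of the 7 and 0 of the 6 above 0. Among the Leydig cell markers Hsd3b1, Star, Hsd3b6 and Cyp17a1 stood at -0.14, -0.08, -0.08 and -0.02, and among the macrophage markers Cd68, C1qa and Cd163 at -0.25, -0.22 and -0.03. KO replicate 1 was the lowest array for both interstitial lists, and it was also the highest array for 5 of the 8 members, Ccna1, Ccna2, Ccnb3, Ccnd2 and Cdk2, against 27.8% of all named probe sets. The part of this array in the differences was not tested. Without it, KO minus WT was 0.0062 for Ccna1, 0.01 for Ccna2, 0.11 for Ccnb3, 0.06 for Ccnd2 and 0.06 for Cdk2. The mean of the 6 endothelial and myoid markers deviated by -0.07 and 0.04 in the KO pools, against 0.07 and -0.04 in the WT pools, with Vwf at -0.13, Pecam1 at -0.09 and Acta2 at 0.08. The mean of the 7 epididymis markers with a value deviated by at most 0.01 in any array, while single genes differed in both directions. All 7 had genotypes that did not overlap, 3 higher and 4 lower in KO, where the share over all named probe sets was 32.5%. Their signals were dim, between 4.11 and 6.70. The differences ran from -0.11 for Rnase10 to 0.20 for Defb48 (unadjusted p = 0.015 from limma), and none passed the adjusted test.

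**Figure D4:**
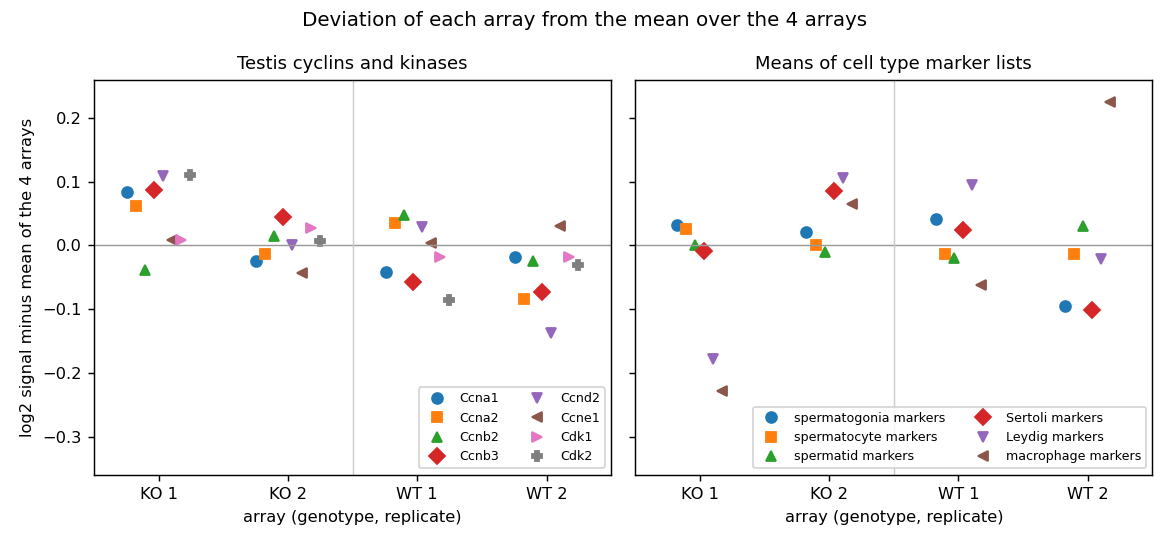
Log2 signal minus the mean of the 4 arrays (vertical axis) in each array (horizontal axis, genotype and replicate) for the 8 members (left) and for the means of 6 lists of cell type markers (right). The KO replicate 1 points of 5 members lie above all their other arrays, and WT replicate 2 is lowest for Ccna2, Ccnb3 and Ccnd2 and for the spermatogonia and Sertoli cell markers.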

How the data were processed

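Total RNA of adult mouse testis was measured on 4 arrays, 2 of Azin2 KO and 2 of Azin2 WT pools. The log2 signals analysed here were deposited by the authors after RMA, per the labels, and the submitters' processing notes name Partek 6.13.1224, while the study's methods name the array maker's software. The labels name a 3′ labelling kit and the methods name cDNA on Mouse Gene 1.1 ST arrays, and the annotation was that of the ST array. The genome build is not given in the sources used here. GEO's platform annotation paired 21218 probe sets with 1 symbol and 1881 with several, and 12457 had none and were not tested by name. KO minus WT was fitted with limma 3.58.1 (R 4.3.3) over 23099 named probe sets, without a batch or replicate term, with Benjamini-Hochberg adjustment. The probe set with the highest mean stood for a gene, and each member had only 1. The fit was tested on data simulated under the model it assumes, with added differences larger than those of the members. That test cannot tell how the fit treats differences as small as theirs. In each gene list, the genes named were the 2 with the smallest unadjusted p and those with the highest and the lowest difference. Hspa2, Sycp3, Stag3 and Tnp1 are named outside this rule, after their values were seen. The members and gene lists were chosen with earlier results of these data known. Alternatives were an ordinary equal-variance test, a signal-dependent prior, median centring, quantile scaling, a filter on dim probe sets, all probe sets, a replicate block, and each array left out. Promoter sequences were from RefSeq (GRCm38.p6).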

Additional observations from a re-analysis of the deposited data

How the results depend on the processing

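The 8 members were recomputed under 95 combinations of member and alternative. The differences kept direction and side of an unadjusted p of 0.05 in 84 of these, and none passed an adjusted p of 0.05. The signal-dependent priors, the ordinary test, the dim filter, the replicate block and the test of every probe set leave each difference unchanged. Under these only the p-value could move, so a kept direction there was fixed in advance. For members other than Ccnb3, the side kept was an unadjusted p above 0.05. Ccnb3 lost its unadjusted p under 0.05 in 8, and the direction turned in 3: Ccnb2 was 0.0025 without KO replicate 1 (-0.0601 to 0.0118 over the arrays left out, above 0 also without WT replicate 1), and Ccna2 was below 0 without WT replicate 2 (-0.0101 to 0.1094). Of named probe sets past an adjusted p of 0.05, 1 by limma, the ordinary equal-variance test and the test of every probe set left 0 (with 1154 and 1724 at an unadjusted p under 0.05), and leaving out each array gave 0 (without WT replicate 1 or WT replicate 2) to 2 (without KO replicate 2). Members at an unadjusted p under 0.05 numbered 0 with the signal-dependent prior (plain or robust), the dim filter, with all probe sets tested, and without each array (0 to 0). With a replicate block the count was also 0, and Ccnb3 had p = 0.0878; the replicate numbers did not pair the pools (correlation of deviations -0.08). The 3 members without overlap became 2 with the dim filter, which removed Ccnb3, 4 with centring, and 4 to 7 without each array, where a lone array overlaps less easily and is assumed to vary like the other genotype. Ccna1 minus Ccna2, KO minus WT, was -0.0620 to 0.0824 without each array (below 0 without KO replicate 1 or WT replicate 1) and 0.01 with quantile scaling. The mean of all probe sets of a gene gave no other value, as each member had 1.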
